A study of Mus musculus with 6 samples.

Results

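The 9 genes described here are the mouse receptor genes Notch1, Notch2, Notch3 and Notch4 and the canonical ligand genes Dll1, Dll3, Dll4, Jag1 and Jag2. They were taken by gene symbol from the 55450 genes of the deposited count table, and each symbol matched 1 gene. Notch signalling passes between touching cells. A ligand on one cell, from the Delta-like (Dll) or Jagged (Jag) family, binds a Notch receptor on its neighbour, and the receptor is then cut so that its intracellular part enters the nucleus. There it acts on transcription through the DNA-binding protein Rbpj, the nuclear partner that all the receptors share. In growing vessels Dll4 and Notch1 restrain sprouting and help to set arterial fate, Notch4 is largely an endothelial receptor, and Notch3 is best known from the mural cells (pericytes and smooth muscle) around vessels.

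RNA was sequenced from CD31-positive brain cells, isolated fresh from mice at postnatal day 7, in 3 mutant and 3 control libraries. Mutant mice were Cdh5(PAC)-CreERT2; Rbpjflox/flox and control mice Cdh5(PAC)-CreERT2; Rbpjflox/WT, so both groups carried at least 1 floxed Rbpj allele and a tamoxifen-inducible Cre under Cdh5 (VE-cadherin) control, which acts in endothelium. All pups were given 100 µg of tamoxifen on postnatal days 1 and 2, and were of either sex on a mixed FVB/N and C57BL/6 background. RNA of many mice was pooled per group before 3 libraries were made, and the labels do not say whether these came from separate pools. The p-values therefore measure library-to-library spread only, and that spread may be technical.

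Total counts ran from 75744913 to 81556241 in mutant libraries and from 78577192 to 82092461 in control libraries, where about 4 units of count stand for 1 read pair. Of 19549 genes tested, 2812 differed between the groups. Endothelial markers were abundant in both groups, with a summed expression of 15046 to 16241 CPM (the count of a gene scaled to the size of its library) over 14 genes in mutant libraries and 15128 to 15558 CPM in control libraries. Of these 14, 4 were called higher and 3 lower. Pecam1, which encodes the CD31 used for isolation, rose by 0.41, as did Egfl7 by 0.43, Emcn by 0.47 and Tie1 by 0.21, whereas Tek, Ptprb and Cdh5 fell by 0.62, 0.62 and 0.15 on the log2 scale. Mural markers were present too, at 4431 to 4531 CPM over 15 genes in mutant libraries and 4418 to 4525 CPM in control libraries, so the libraries were not purely endothelial. Erythroid markers summed to 4665 to 4961 CPM over 7 genes in mutant libraries and 6974 to 7179 CPM in control libraries, with 5 called lower, and fibroblast markers to 617 to 797 CPM over 9 genes in mutant libraries and 911 to 1020.5 CPM in control libraries, with 3 called lower. Their part in the differences of the receptors and ligands was not tested. Rbpj had 47.9, 46.8 and 45.2 CPM in mutant libraries, against 54.3, 54.3 and 53.8 CPM in control libraries. The labels do not say which exons are floxed, so the count of the whole gene is a weak check of the deletion. The processed pseudogene Rbpj-ps3, a copy that can share reads with Rbpj, had 1.25, 0.991 and 0.891 CPM in mutant libraries, against 6.10, 6.29 and 6.30 CPM in control libraries (adjusted p = 6.3e-05, edgeR quasi-likelihood test).

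Of the 9 receptors and ligands, 2 were higher in mutant libraries (Notch4 and Dll4) and 2 were lower (Notch1 and Notch3). A gene is called higher or lower where the edgeR quasi-likelihood test gave an adjusted p under 0.05 over all genes tested. All 9 passed the low-count filter. Calls made up 14.4% of all genes tested, 7.56% higher and 6.83% lower, beside 4 of 9 members. The unadjusted p was under 0.05 for 7 of the 9 members and for 26.9% of all genes tested. In 7 of the 9 genes the 3 mutant and 3 control libraries did not overlap, as in 34.1% of all genes tested. The differences were small: the median absolute log2 fold change was 0.21 over the 9 genes, 0.19 over all genes tested and 0.41 over the 2812 called genes. No fitted difference reached 2-fold, although the interval of Dll3 extended past that size. Libraries of enriched cells cannot tell fewer cells of a type from less RNA per cell.

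**Figure D1:**
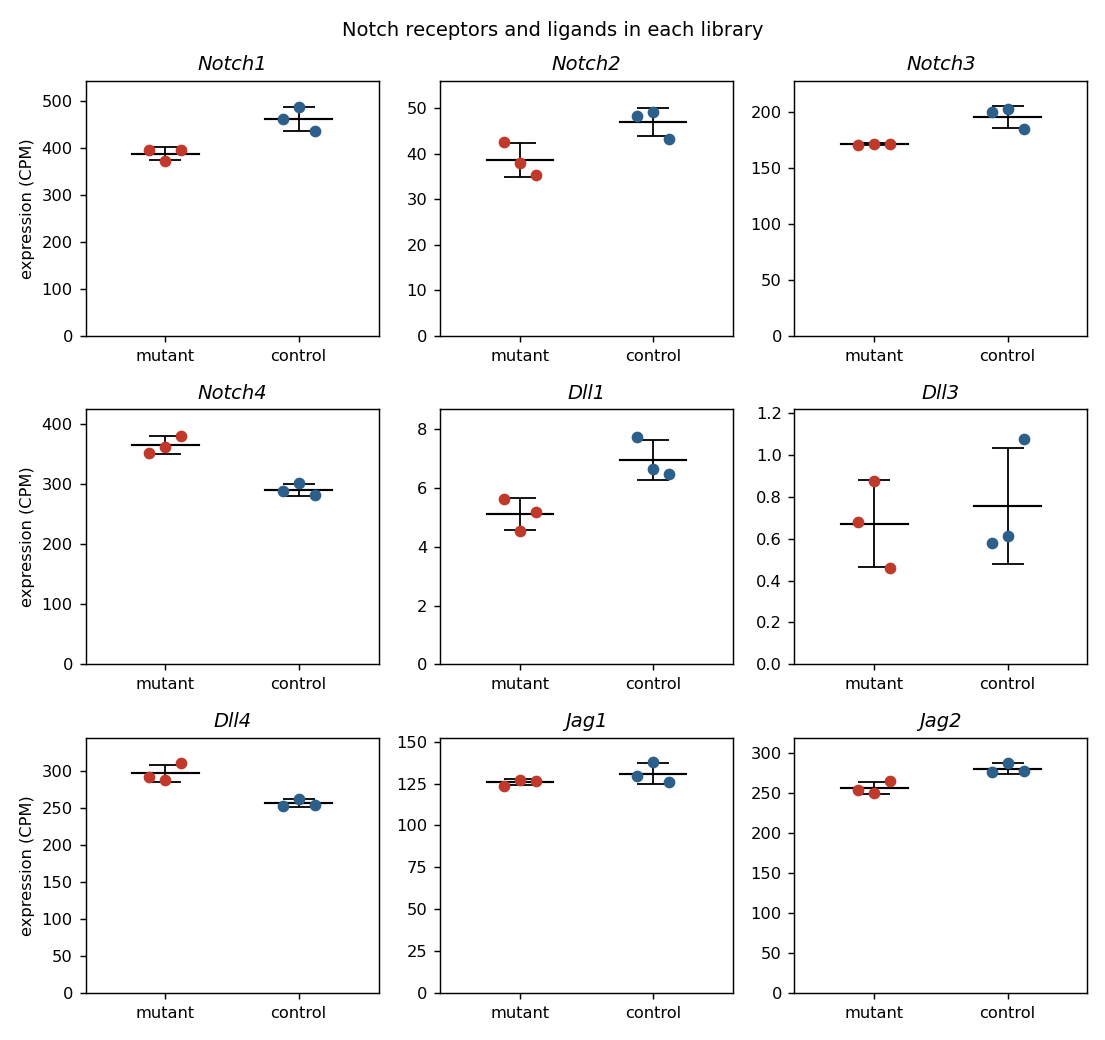
Expression of each receptor and ligand gene in CPM (linear axis from 0), mutant libraries left in red and control libraries right in blue; points are libraries, lines the mean and bars the SD of 3. Notch4 and Dll4 lie higher in every mutant library than in any control library, Notch1, Notch2, Notch3, Dll1 and Jag2 lie lower, and Dll3 and Jag1 overlap.

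The receptor genes moved apart. Notch4 (ENSMUSG00000015468), the endothelial receptor, occupies 34564268 to 34588503 of chromosome 17 (GRCm38, plus strand), and coordinates of the other genes are on the same build. It had 351, 361 and 381 CPM in mutant libraries, against 289, 302 and 282 CPM in control libraries. Every mutant library was above every control library, and the gap between the groups was wider than the range within either. The log2 fold change of Notch4 was 0.33 ± 0.043 (SE), with a 95% interval of 0.23 to 0.43, which is a 1.25-fold difference (adjusted p = 0.0022, edgeR quasi-likelihood test). Its call held in all 14 other fits, including the 6 with 1 library left out.

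Notch1 (ENSMUSG00000026923), the receptor that restrains sprouting when engaged by Dll4, occupies 26457903 to 26516663 of chromosome 2, minus strand. Its expression was 395, 371 and 396 CPM in mutant libraries, against 461, 487 and 436 CPM in control libraries. All 3 mutant libraries were lower, with no overlap. Its log2 fold change was -0.25 ± 0.049 (SE) and the 95% interval ran -0.36 to -0.14 (adjusted p = 0.0126, edgeR quasi-likelihood test). The call was lost without mutant library 2 (-0.21, adjusted p = 0.0547) and without control library 1 (-0.25, adjusted p = 0.0544).

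Notch3 (ENSMUSG00000038146), at 32120820 to 32166852 of chromosome 17, minus strand, is a receptor of mural cells. It had 169.8, 171 and 171 CPM in mutant libraries, against 199.5, 202 and 184 CPM in control libraries. The mutant libraries were nearly equal to each other, with an SD of 0.829 CPM, while the control SD was 9.53 CPM. The log2 fold change of Notch3 was -0.19 ± 0.042 (SE), with a 95% interval of -0.29 to -0.10 (adjusted p = 0.0204, edgeR quasi-likelihood test). The call was lost without mutant library 1 or 2 (adjusted p = 0.067 and 0.0744) and without control library 1 or 2 (adjusted p = 0.0919 and 0.0875).

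Mural cell markers, which bear on Notch3, moved in both directions in the same libraries. Of 15 listed, 4 were higher and 6 lower in mutant libraries, with a median log2 fold change of -0.05. The smooth muscle genes Acta2, Tagln, Myh11, Cnn1 and Myl9, which encode contractile proteins, fell by 1.32, 1.17, 1.02, 1.84 and 0.73 on the log2 scale. The pericyte genes Abcc9, Kcnj8 and Higd1b rose by 0.52, 0.49 and 0.41, and so did Cspg4, by 0.19, while the pericyte gene Vtn fell by 0.18. Rgs5, Atp13a5 and Anpep, also pericyte markers, were not called, with log2 fold changes of 0.09, -0.05 and -0.02. Pdgfrb, a growth factor receptor of both mural types, averaged 429 CPM in mutant libraries and 444 CPM in control libraries (adjusted p = 0.326, edgeR quasi-likelihood test). The part of these markers in the difference of Notch3 was not tested.

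Notch2 (ENSMUSG00000027878), a broadly expressed receptor at 98013527 to 98150361 of chromosome 3, plus strand, was the scarcest receptor. It had 42.6, 38.0 and 35.4 CPM in mutant libraries, against 48.3, 49.3 and 43.4 CPM in control libraries. The groups did not overlap, but mutant library 1 and control library 3 were only 0.785 CPM apart. Notch2 had a log2 fold change of -0.28 ± 0.082 (SE), its unadjusted 95% interval ran -0.47 to -0.09, and it missed the threshold (adjusted p = 0.0621, edgeR quasi-likelihood test). Microglia markers also stood lower in the mutant libraries, 8 of 11 of them by the test and none higher, and their part in Notch2 was not tested. The summed expression of the microglia list was 1327 to 1397 CPM in mutant libraries and 1689 to 1736 CPM in control libraries.

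The promoters of Notch4 and Notch1, which moved in opposite directions, and of Dll4, the ligand that moved with Notch4, are shown for comparison. Sequences are from RefSeq on GRCm38.p6 and cover the 250 bases before the start of the RefSeq gene, on the strand of the gene. Capitals mark GGGCGG (the GC box, bound by Sp family factors) and AGGAA (a core of Ets family sites), each on either strand.
Notch4: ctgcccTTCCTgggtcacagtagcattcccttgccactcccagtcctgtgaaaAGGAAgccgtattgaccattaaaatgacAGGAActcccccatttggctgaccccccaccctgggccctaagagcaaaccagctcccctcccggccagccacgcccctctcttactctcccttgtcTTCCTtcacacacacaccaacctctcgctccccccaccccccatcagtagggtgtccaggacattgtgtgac
Notch1: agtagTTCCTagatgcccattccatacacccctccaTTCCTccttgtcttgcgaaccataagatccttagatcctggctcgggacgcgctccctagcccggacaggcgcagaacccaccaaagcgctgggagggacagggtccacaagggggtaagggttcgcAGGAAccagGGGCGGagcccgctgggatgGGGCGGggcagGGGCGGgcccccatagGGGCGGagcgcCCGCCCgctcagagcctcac
Dll4: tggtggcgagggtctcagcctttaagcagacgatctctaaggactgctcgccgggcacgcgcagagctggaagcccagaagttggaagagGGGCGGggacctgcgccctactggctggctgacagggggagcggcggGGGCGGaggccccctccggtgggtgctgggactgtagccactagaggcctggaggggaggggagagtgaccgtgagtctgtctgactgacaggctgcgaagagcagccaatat
The windows are chr17:34564045-34564294 on the plus strand for Notch4, chr2:26503823-26504072 on the minus strand for Notch1 and chr2:119325534-119325783 on the plus strand for Dll4. The Notch1 window, set by the RefSeq start, lies inside the longer GENCODE span given above, which reaches 26516663, and the last bases of the Notch4 window overlap the GENCODE span of Notch4. Notch1 held 5 GC boxes, 3 AGGAA and 16 CG dinucleotides. Notch4 held no GC box, 4 AGGAA and 4 CG dinucleotides. Dll4 held 2 GC boxes, no AGGAA and 14 CG dinucleotides. Notch3, also called lower but not shown, held 4 GC boxes, no AGGAA and 17 CG dinucleotides. Notch2 and Jag2, which were not called, each held 5 GC boxes and no AGGAA. Jag1, also not called, held no GC box and 2 AGGAA, as Notch4 held AGGAA without a GC box. The 2 windows of Dll1, not called either, held no GC box, with 1 AGGAA in 1 of them. Dll3, likewise not called, held 1 GC box and 1 AGGAA. Among 32851 such windows of all genes the median was 6 CG dinucleotides, 32.7% held a GC box and 60.3% held AGGAA. These patterns were looked for after the sequences had been seen. TGGGAA, the core of the motif bound by Rbpj, was searched on both strands too. It was found in none of the 10 windows of the 9 genes (Dll1 has 2), while 21.6% of all windows held it. The longer form GTGGGAA, which contains TGGGAA, stood in 5.42% of all windows and in none of the 10. Sequence outside these windows was not searched.

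Among the ligands, Dll4 was higher in mutant libraries and none was called lower. Dll4 (ENSMUSG00000027314), the main endothelial ligand of tip cells and arteries, occupies 119325784 to 119335962 of chromosome 2, plus strand. Its expression was 292, 288 and 310.2 CPM in mutant libraries, against 253, 262 and 254 CPM in control libraries. Control libraries lay close together, and every mutant library was above them. The log2 fold change of Dll4 was 0.21 ± 0.039 (SE), with a 95% interval of 0.12 to 0.30, a 1.16-fold difference (adjusted p = 0.0100, edgeR quasi-likelihood test). The call held in all 14 other fits, with an adjusted p of up to 0.0481 when 1 library was left out.

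Gm14207, an unnamed transcript on the opposite strand, overlaps 214 bases of Dll4 exons. Per the labels the library kit kept strand, but the sources used here do not say whether the counting used it, so reads in the overlap cannot be assigned with certainty. It had 7.26, 7.23 and 7.40 CPM in mutant libraries, against 3.77, 4.66 and 4.75 CPM in control libraries. Its log2 fold change was 0.73 ± 0.120 (SE; adjusted p = 0.00614, edgeR quasi-likelihood test). It received far fewer reads than Dll4 in every library. Antisense genes that overlap exons of Notch1, Notch3 and Dll1 had at most 1.29 CPM in any library.

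Jag2 (ENSMUSG00000002799), at 112907819 to 112929776 of chromosome 12, minus strand, encodes a Jagged ligand found in endothelium. It had 254, 249 and 265 CPM in mutant libraries, against 276, 288 and 277 CPM in control libraries. The groups did not overlap, yet the log2 fold change of -0.13 ± 0.036 (SE) missed the threshold (adjusted p = 0.0523, edgeR quasi-likelihood test). Its unadjusted 95% interval was -0.22 to -0.05.

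Jag1 (ENSMUSG00000027276), at 137081456 to 137116644 of chromosome 2, minus strand, encodes a ligand made by endothelial cells and other cells of the vessel wall. It had 124, 127 and 127 CPM in mutant libraries, against 129.6, 138 and 126 CPM in control libraries. The groups overlapped, since control library 3 lay below 2 of the mutant libraries. Jag1 had a log2 fold change of -0.06 with a 95% interval of -0.16 to 0.04 (adjusted p = 0.459, edgeR quasi-likelihood test).

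Dll1 and Dll3, best known as ligands of neural progenitors and of the embryonic somites, were scarce. Dll1 (ENSMUSG00000014773, chromosome 17, 15367354 to 15376872, minus strand) had 5.63, 4.56 and 5.20 CPM in mutant libraries, against 7.73, 6.64 and 6.48 CPM in control libraries. Its log2 fold change of -0.44 ± 0.126 (SE) was the largest of the 9 in size, with a 95% interval of -0.73 to -0.14, and it missed the threshold (adjusted p = 0.0599, edgeR quasi-likelihood test). Its counts correspond to about 88.5 to 153 read pairs per library. Of 12 astrocyte and radial glia markers, 1 (Aqp4) was lower and none higher. Their summed expression was 317 to 447 CPM in mutant libraries and 536 to 591 CPM in control libraries. Much of this gap lay in Gja1 and Slc1a3, which varied within a group and were not called (adjusted p = 0.326 and 0.113, edgeR quasi-likelihood test). Of 10 neuron and neuroblast markers, 1 (Stmn2, which was also listed as an arterial marker) was lower and none higher. Their median log2 fold change was 0.29. They summed to 299 to 368 CPM in mutant libraries and 283 to 291 CPM in control libraries. The part of either list in Dll1 was not tested.

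Dll3 (ENSMUSG00000003436, chromosome 7, 28293553 to 28302238, minus strand), which acts mainly inside the cell rather than as an activating ligand, had 0.681, 0.875 and 0.459 CPM in mutant libraries, against 0.581, 0.611 and 1.07 CPM in control libraries. That is about 8.5 to 22 read pairs per library. The groups overlapped, and at this depth no difference was detected and the interval was wide (log2 fold change -0.17, 95% interval -1.04 to 0.70, adjusted p = 0.836, edgeR quasi-likelihood test). Its direction turned to 0.05 without mutant library 3 and to 0.17 without control library 3.

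**Figure D2:**
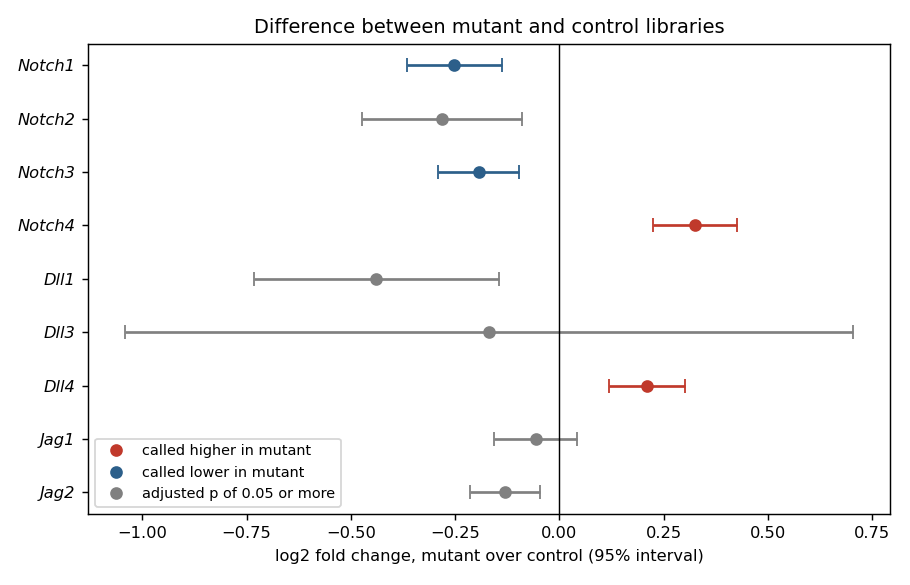
Log2 fold change of each gene, mutant over control, with its unadjusted 95% interval from the edgeR fit of 3 mutant and 3 control libraries; red and blue points are called higher and lower, grey points are not called. Notch4 at 0.33 and Dll4 at 0.21 lie right of 0, the other 7 lie left of it, and only the intervals of Dll3 and Jag1 cross 0.

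To compare the genes with each other, expression was divided by the length of each gene's exons, as RPKM (CPM per kilobase of exon). Dll4 was the most abundant of the 9 genes in both groups, at 77.1 ± 3.06 RPKM in mutant libraries and 66.6 ± 1.33 RPKM in control libraries (SD, n = 3 each). It stood above 96.5% of all genes tested in mutant libraries and 96.0% in control libraries. Jag2 was the second ligand at 36.7 ± 1.12 RPKM in mutant libraries and 40.2 ± 0.933 RPKM in control libraries. Jag1 followed at 21.6 ± 0.323 RPKM in mutant libraries and 22.5 ± 1.05 RPKM in control libraries. Dll1 averaged 1.22 RPKM in mutant and 1.65 RPKM in control libraries, and Dll3 averaged 0.236 RPKM in mutant and 0.265 RPKM in control libraries. In both groups the ranges of neighbouring ligands did not overlap, and the order was the same when the longest transcript was used as the length.

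Among the receptors, Notch4 came first in mutant libraries at 45.2 ± 1.86 RPKM, against 36.1 ± 1.26 RPKM in control libraries. Notch1 had 27.2 ± 0.993 RPKM in mutant libraries and 32.4 ± 1.78 RPKM in control libraries. Notch3 had 21.1 ± 0.102 RPKM in mutant libraries and 24.1 ± 1.18 RPKM in control libraries, and Notch2 had 3.59 RPKM in mutant and 4.36 RPKM in control libraries. The order of the top pair in control libraries depends on the length used. The exons of all annotated Notch1 transcripts span 14232 bases but its longest transcript has 9488, while for Notch4 the lengths are 8061 and 6591 bases. With the longest transcript, Notch4 had 55.3 RPKM and Notch1 40.9 RPKM in mutant libraries, whereas Notch4 had 44.1 RPKM and Notch1 48.6 RPKM in control libraries. Notch4 thus led in mutant libraries by either length, and in control libraries it led by the first length and was second by the other. Within each group and length the ranges of neighbouring receptors did not overlap. Over all 9 genes, the only neighbours with overlapping ranges were Notch3 and Jag1 in control libraries.

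Dividing each receptor by the sum of the 4 receptors in the same library removes differences of scaling between libraries. Notch4 made up 45.2%, 46.9% and 47.5% of receptor RPKM in mutant libraries, against 36.8%, 37.0% and 37.8% in control libraries. Notch1 made up 28.9%, 27.3% and 28.0% in mutant libraries, against 33.3%, 33.8% and 33.2% in control libraries. Neither overlapped between the groups. The mean difference was 9.33 percentage points for Notch4 and -5.38 for Notch1. Notch3 averaged 21.7% in mutant and 24.9% in control libraries, and Notch2 averaged 3.70% in mutant and 4.49% in control libraries. The sum over the receptors was 97.1 ± 2.07 RPKM in mutant libraries and 97.0 ± 4.40 RPKM in control libraries (SD, n = 3 each; exact two-sided permutation p = 1).

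Dll4 made up 56.1%, 55.9% and 56.8% of ligand RPKM in mutant libraries, against 50.7%, 50.5% and 51.0% in control libraries. Jag2 made up 27.0%, 26.8% and 26.8% in mutant libraries, against 30.5%, 30.6% and 30.8% in control libraries. For both genes the shares differed by far more between the groups than within them. Jag1 averaged 15.8% in mutant and 17.1% in control libraries, and the shares of Dll1 and Dll3 stayed under those of the other ligands. The sum over the ligands was 136.9 ± 4.22 RPKM in mutant libraries and 131.2 ± 3.14 RPKM in control libraries, with overlapping ranges (exact two-sided permutation p = 0.2). For 8 of the 9 shares, all but that of Dll3, the exact permutation p was 0.1, the smallest that 3 libraries against 3 allow, and 0.113 adjusted over the 9 shares. The receptor shares have a fixed total, as do the ligand shares, so a larger share of Notch4 or Dll4 leaves less for the others. The 9 tests are therefore not separate evidence. The Jag1 share was among the 8, although its CPM overlapped between the groups (adjusted p = 0.459, edgeR quasi-likelihood test). How often shares in other gene sets separate was not tested. With CPM in place of RPKM the Notch3 difference was -1.87 percentage points, against -3.15 with RPKM, and the exact permutation test of the Jag1 share gave an adjusted p of 0.225, above the smallest value possible.

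**Figure D3:**
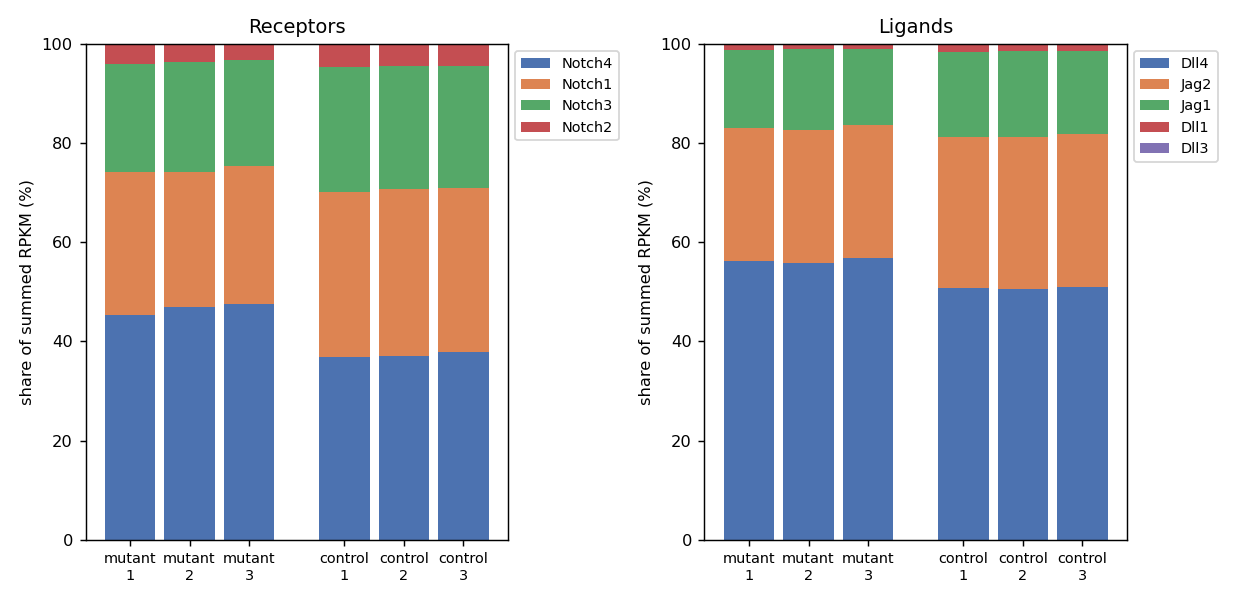
Share of each receptor in the summed receptor RPKM (left) and of each ligand in the summed ligand RPKM (right), in percent, 1 bar per library, mutant libraries first. The Notch4 segment covers 45.2% to 47.5% in mutant and 36.8% to 37.8% in control libraries, and the Dll4 segment 55.9% to 56.8% in mutant and 50.5% to 51.0% in control libraries.

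Ratios of gene pairs within a library do not depend on scaling or length when they are compared between groups. The log2 ratio of Notch4 to Notch1 in CPM was -0.17, -0.04 and -0.06 in mutant libraries, against -0.67, -0.69 and -0.63 in control libraries, a difference of 0.58. The groups were thus far apart relative to their spread, with an SD of 0.0713 among mutant and 0.0305 among control libraries. The log2 ratio of Dll4 to Jag2 averaged 0.21 ± 0.0141 in mutant libraries and -0.13 ± 0.00482 in control libraries (SD, n = 3 each), a difference of 0.34. Dll4 to Notch1 differed by 0.46 and Dll4 to Jag1 by 0.27 on the log2 scale, each higher in every mutant library. For each of these 4 ratios the exact two-sided permutation p was 0.1, raw and adjusted over the 4, which is the smallest the design allows. For Notch4 to Notch1, Dll4 to Notch1 and Dll4 to Jag2 that value followed from the CPM of the genes already given. Notch4 and Dll4 were higher, and Notch1 and Jag2 lower, in every mutant library than in any control library. The value for Dll4 to Jag1 followed from the CPM as well, although Jag1 overlapped between the groups. In mutant libraries Dll4 was at least 288 CPM and Jag1 at most 127 CPM. In control libraries Dll4 was at most 262 CPM and Jag1 at least 126 CPM. Any ratio of the mutant values is thus above any of the control values. The tests of these 4 ratios therefore added no separate evidence.

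Other genes of the pathway, grouped by role, moved in both directions. The lists were chosen with earlier results of these data known. Of 70 tested, 7 were higher and 10 lower in mutant libraries (24.3% called, beside 14.4% of all genes tested). Their median log2 fold change was -0.07, beside -0.01 for all genes. The number lower was 6 without mutant library 2, 6 without control library 1 and 5 without control library 2.

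Among 7 non-canonical ligands tested, 2 rose and 1 fell, and their median log2 fold change was -0.11. Dlk1, a Delta-like protein without the domain that binds receptors in canonical ligands, averaged 24.8 CPM in mutant libraries and 4.34 CPM in control libraries. Its log2 fold change of 2.51 (adjusted p = 1.93e-05, edgeR quasi-likelihood test) was far above that of any canonical ligand. Egfl7, a secreted endothelial protein, rose by 0.43 and Mfap2, a microfibril protein, fell by 0.51 on the log2 scale.

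Enzymes that act on the receptors were mostly not called. Of 5 glycosylation genes, Lfng, a Fringe enzyme that shifts receptors toward Delta-like ligands, was higher (0.46, adjusted p = 0.000194, edgeR quasi-likelihood test). Pofut1, which adds the first sugar to the receptor, was lower (-0.25, adjusted p = 0.00344, edgeR quasi-likelihood test). Of 10 cleavage genes, Furin, the convertase that cuts receptors on their way to the surface, was higher at 0.19. Psenen, a subunit of the gamma-secretase complex, was lower at -0.33. Of 16 genes of endocytosis and turnover, Mib2, a ubiquitin ligase for ligands, was lower at -0.38, and that call was lost in 5 of the 6 fits with 1 library left out, all but that without control library 1. Of 21 nuclear cofactors, Rbpj was the only gene called (-0.21 ± 0.042 SE, adjusted p = 0.0129, edgeR quasi-likelihood test). The Rbpj call was lost without mutant library 2, control library 1 or control library 2, with an adjusted p of up to 0.0571.

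Of 11 genes known as Notch targets in vessels or other tissues, 3 were higher and 5 lower, with a median log2 fold change of -0.31. The genes that rose were Nrarp, a feedback inhibitor of Notch signalling, by 0.37, the cell cycle gene Ccnd1 by 0.26 and the repressor gene Heyl by 0.13 on the log2 scale (adjusted p = 0.00141, 0.00274 and 0.0430, edgeR quasi-likelihood test). Hes1 and Gja4 fell by 0.33 and 0.31, and the 3 genes with the largest called changes fell as well. Gja5, which encodes an arterial gap junction protein, had a log2 fold change of -1.91 (adjusted p = 0.0274, edgeR quasi-likelihood test). Efnb2, the arterial ephrin ligand, had -0.77 (adjusted p = 5.61e-05, edgeR quasi-likelihood test) and the repressor gene Hey1 had -0.52 (adjusted p = 0.0493, edgeR quasi-likelihood test). The Gja5 call was lost without mutant library 2, without any 1 of the control libraries and with no low-count filter. The Hey1 call survived only the omission of mutant library 1 among the 6 omissions, and it was also lost with no low-count filter and with library size as the only scaling. Arterial markers as a list were lower too, 11 of 14 against 2 higher (Nrp1 and Cxcr4), with a median of -0.46, and Efnb2, Gja5 and Gja4 stand in both lists.

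**Figure D4:**
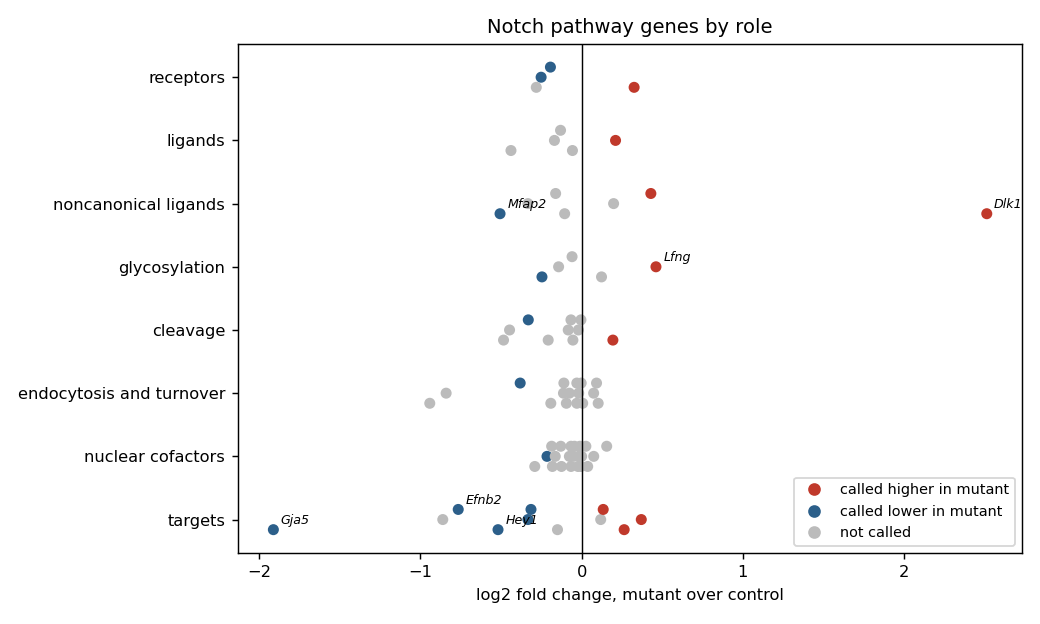
Log2 fold change, mutant over control, of each tested pathway gene, 1 row per role; red and blue points are called higher and lower, grey points are not called, and called genes beyond 0.45 in size are named. Receptors and ligands lie within 0.44 of 0, while Dlk1 at 2.51 and Gja5 at -1.91 lie farthest out.

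The genes whose expression ran most alike to a called member over the 6 libraries were found by Pearson correlation of log2(CPM + 1) among 11738 genes with a mean of at least 5 CPM. Such correlations mostly follow the difference between the 2 groups and are given as a description. For Notch4 they were Gm6180, 2900026A02Rik and Dysf (r = 0.9998, 0.9984 and 0.9982). For Dll4 they were Tmc7, Flt4 and Dlc1 (r = 0.9986, 0.9977 and 0.9974). For Notch1 they were Adamts10, Nhsl2 and Lama3 (r = 0.9921, 0.9914 and 0.9913), and for Notch3 they were Ntrk3, Fbln2 and Tet1 (r = 0.9974, 0.9955 and 0.9940). The number of genes with r above 0.95 was 668 for Notch4 and 548 for Dll4, but 179 for Notch1 and 161 for Notch3.

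**Figure D5:**
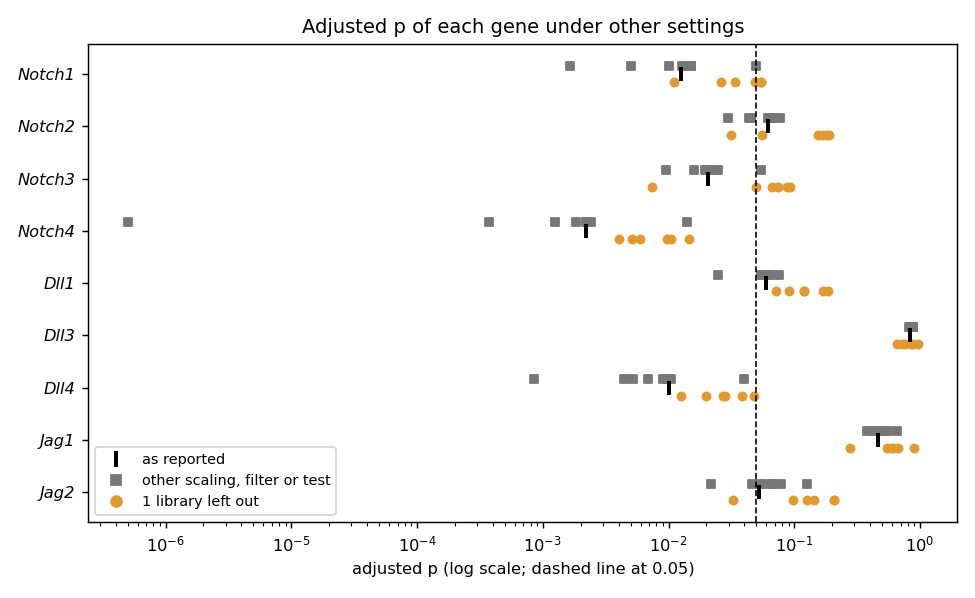
Adjusted p of each gene on a log axis, with the dashed line at 0.05; black bars are the values reported, grey squares the other scalings, filters and tests, and orange points the fits with 1 library left out. All points of Notch4 and Dll4 lie left of the line, those of Jag1 and Dll3 right of it, and Notch1, Notch2, Notch3, Dll1 and Jag2 have points on both sides.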

How the data were processed

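The authors deposited whole-number estimated counts for each gene, without normalization, and a quality table with the count of raw and valid reads and percent values per library (per the file headers). The submitters' processing notes name the build GRCm39 and the tools HISAT2, StringTie 1.3.4, edgeR, FastQC 0.10.1 and cutadapt 1.10, with no roles. The annotation and strand setting are not given in the sources used here. Each of the 55450 identifiers matched GENCODE M21, whose symbols, exon lengths and GRCm38 coordinates are used. A time label names the day of birth, and the age label was used. Totals were 1.51 to 1.53 times the valid reads and low counts piled up at multiples of 4, so about 4 units of count stand for 1 read pair, and counting precision follows read pairs.

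The planned test assumed raw counts. The estimates were whole already, so rounding changed nothing. Genes were filtered with filterByExpr (19549 kept), scaled by TMM (factors 0.978 to 1.009) and tested in 1 fit with group as the only term, with edgeR 4.0.16 in R 4.3.3 (quasi-likelihood F test, robust) and Benjamini-Hochberg adjustment over all genes. The SE is the log2 fold change over the square root of F. CPM used TMM-scaled library sizes, and RPKM divided CPM by the length of all annotated exons. Shares and ratios were compared with exact permutation tests (scipy 1.17.1). DESeq2 1.42.0 and limma 3.58.1 served as alternatives. Libraries of 1 group differed by more than sampling noise (median chi-square 1.90 to 2.83 times its expectation), so none were merged.

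The members and lists were chosen with earlier results of these data known. All 9 members are named, with the 3 largest called changes of each role list and the 3 genes most alike to each called member. Endothelial, mural, microglia, astrocyte, neuron and arterial genes and the further targets named beside a result were chosen after their values were seen.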

Additional observations from a re-analysis of the deposited data

How the results depend on the processing

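Notch4, Dll4, Jag1 and Dll3 kept their side of the threshold in all 14 other fits in which they were tested (13 for Dll3). With 1 library left out, log2 fold changes ranged from -0.29 to -0.20 for Notch1, -0.36 to -0.22 for Notch2, -0.23 to -0.16 for Notch3, -0.15 to -0.10 for Jag2 and -0.40 to 0.17 for Dll3, whose share differed by -0.0574 to 0.0151 percentage points. The number of members called lower then ran from 0 to 3 (0 without mutant library 2 or control library 1, 1 without control library 2), that of all genes lower from 807 to 1125 and that of other pathway genes lower from 5 to 10. Notch2 passed the threshold with no low-count filter (-0.28), with DESeq2 (-0.28) and without mutant library 1. Jag2 passed with library size only (-0.14), with the stricter filter (-0.13) and without mutant library 3. Dll1 passed with DESeq2 (-0.43), which called 4 members lower. The labels do not say whether the replicate numbers pair the libraries. Deviations of same-numbered libraries correlated at 0.0126 to 0.0267, and those of differently numbered libraries at -0.0284 to 0.00943. All of these correlations are small, so they do not settle whether the libraries are paired. With the replicate block, Notch2 passed (-0.28), Notch3 did not (-0.19, adjusted p = 0.0539), the calls of Gja5 and Mib2 were lost too, and 1106 genes were higher and 953 lower. The causes of these changes were not tested. The median of all genes moved by less than 0.1 under every scaling. Dll3 had counts equal to about 8.5 to 22 read pairs per library.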
